A study of Mus musculus with 6 samples.

Results

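The set comprised the mouse genes of the major histocompatibility complex (MHC) and of the machinery that loads its molecules with peptide. Members were the protein-coding genes of the deposited count table whose symbol begins with H2-, which gave 34 genes, plus B2m, Cd74, Ciita, Tap1, Tap2, Tapbp, Psmb8, Psmb9, Psmb10 and Nlrc5. Together these were 44 of the 54532 genes in the table. They were divided into 32 genes of the class I pathway, 11 genes of the class II pathway and 1 gene, H2-Ke6, that belongs to neither. In all, 39 of the 44 genes lie on chromosome 17 (mm10).

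The RNA was total RNA of inguinal white adipose tissue (iWAT), a fat depot under the skin of the groin, which holds fat cells together with vessels, precursor cells and immune cells. There were 3 libraries from aged mice given estrogen and 3 libraries from aged mice given the vehicle, and all 6 came after 7 days of cold exposure. The sources used here do not give dose, route, strain, sex, exact age or any surgery. The design text states that the study asked what estrogen does to beige fat cells, the heat-producing cells that appear in this depot in the cold.

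MHC class I molecules pair a heavy chain with beta-2-microglobulin and show peptides from inside the cell to CD8+ T cells. Those peptides are cut by the proteasome, pumped into the endoplasmic reticulum by the TAP transporter and loaded there. MHC class II molecules are made mainly by dendritic cells, macrophages and B cells. They take up peptides in endosomes, where DM removes the invariant chain fragment from the groove and DO restrains DM, and they present them to CD4+ T cells. NLRC5 drives transcription of class I genes and CIITA that of class II genes.

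Counts were scaled by library with TMM factors and are given as CPM, counts scaled to a common library size. Of the 44 genes, 28 passed the low-count filter, 19 of class I and 9 of class II. Total counts were 19263623, 16046601 and 16473388 in estrogen replicates 1, 2 and 3 and 19102059, 19014779 and 20736771 in vehicle replicates 1, 2 and 3. A count of 3 equals 0.130 to 0.209 CPM. The 8 adipocyte markers together held 28381 to 48734 CPM in the estrogen libraries and 19390 to 28376 CPM in the vehicle libraries. The libraries also differed in lymphocyte RNA. The 10 B cell markers together held 198, 7.33 and 131 CPM in estrogen replicates 1, 2 and 3 and 5.03, 6.27 and 8.20 CPM in vehicle replicates 1, 2 and 3. Estrogen replicates 1 and 3 therefore stood apart from the other 4 libraries, and results that rest on them are also given without them. That comparison leaves 1 estrogen library, which is assumed to vary like the vehicle libraries. The labels do not say whether every library is its own animal. P-values here reflect how much these samples vary, and some of that variation may be technical.

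No gene of the set, and none of the 15591 genes tested, reached an adjusted p under 0.05 (edgeR quasi-likelihood test, Benjamini-Hochberg adjustment). The share of all tested genes called was 0%, and the smallest adjusted p in the table was 0.207. At an unadjusted p under 0.05, 9 of the 28 tested members were called, beside 20.4% of all tested genes. Of these, 5 were higher in the estrogen libraries, beside 9.49% of all genes, and 4 were lower, beside 10.9%. DESeq2, with its own adjusted p under 0.05, called 3 members higher, H2-Q6, H2-Q7 and H2-Ob, beside 2.75% of 14026 genes. It called 0 members lower, beside 3.34%. The count of lower members rests on single libraries: it was 0 when estrogen replicate 2 or vehicle replicate 2 was left out, 1 when estrogen replicate 3 was left out, and 2 for vehicle replicate 1. The count of higher members was 10 when estrogen replicate 2 was dropped and 8 when vehicle replicate 1 was dropped. With estrogen replicates 1 and 3 both dropped, 2 members were higher and 5 lower.

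Class I and class II genes lay on opposite sides of 0 for the most part. Of the 19 tested class I genes, 15 had a positive log2 fold change (estrogen over vehicle) and 4 a negative one, with a median of 0.22. Of the 9 tested class II genes, 3 were positive and 6 negative, with a median of -0.29. Among all tested genes 50.3% were positive and the median was 0.00. Class I held 3 genes higher and 0 lower at an unadjusted p under 0.05, whereas class II held 2 higher and 4 lower. The class I median was 0.03 without estrogen replicate 3, and the class II median was -0.12 without vehicle replicate 2. With estrogen replicates 1 and 3 dropped, the medians were 0.05 for class I and -0.59 for class II. In a bulk sample, fewer cells of a type and less RNA per cell cannot be told apart.

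**Figure D1:**
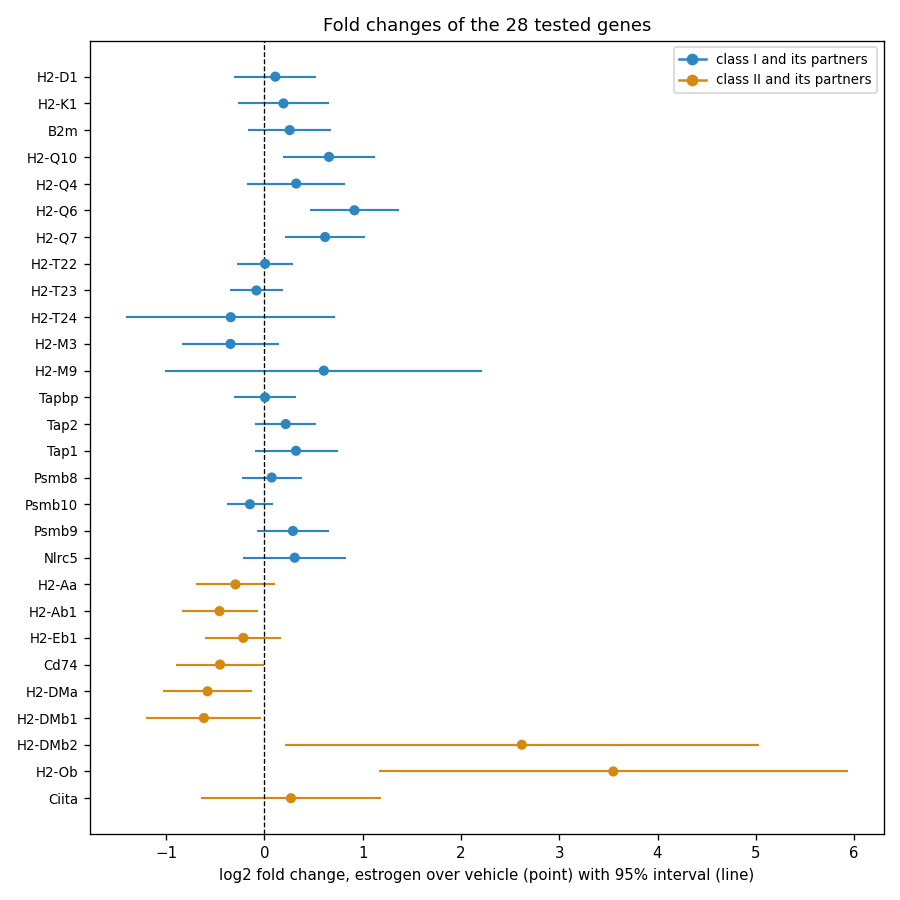
Log2 fold change of each of the 28 tested genes (horizontal axis, estrogen over vehicle; points) with its 95% interval from the edgeR fit (lines), ordered down the page by role, class I in blue and class II in orange. H2-Q6, H2-Q7 and H2-Q10 lie to the right of 0, the class II genes from H2-Aa to H2-DMb1 lie to the left, and H2-DMb2 and H2-Ob lie far to the right with the widest intervals.

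Of the 44 genes, 37 had a promoter sequence of RefSeq (GRCm38.p6), and 8 of these were class II genes. H2-Ab1 was among the genes without one, so it was not searched for the motifs below. Each promoter runs from 250 bases before to 50 bases after the gene's RefSeq start, which can differ from the start of the counted gene. For H2-DMb2, counted from 34143307, the stretch below begins at 34145112, inside the counted gene. Class II promoters are known for an X box and a Y box at a fixed spacing, the surface on which RFX, CREB and NF-Y proteins assemble and to which CIITA is recruited. The core GNAAC followed after 20 to 30 bases by TGATTGG, searched on both strands, was found in 0.323% of 32851 promoters and in 6 members, all of class II. These were H2-Aa, H2-Eb1, H2-Eb2, H2-DMb1, H2-Oa and H2-Ob. The letters of the motifs were chosen after these promoters had been read. The stretches are shown because the tested carriers of the pair differed in log2 fold change. It was -0.29 for H2-Aa, -0.21 for H2-Eb1, -0.61 for H2-DMb1 and 3.55 for H2-Ob. H2-Ob alone was positive, and without estrogen replicates 1 and 3 it was -0.54. H2-Eb2 and H2-Oa were not tested. Each is written 5′ to 3′ on the gene's strand, with the cores in capitals, and H2-DMb2 is set beside its near copy H2-DMb1.
H2-Aa: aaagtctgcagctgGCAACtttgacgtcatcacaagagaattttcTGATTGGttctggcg
H2-Eb1: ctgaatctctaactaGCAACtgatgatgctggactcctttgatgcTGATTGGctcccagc
H2-Eb2: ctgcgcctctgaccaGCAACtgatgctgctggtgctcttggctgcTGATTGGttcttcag
H2-DMb1: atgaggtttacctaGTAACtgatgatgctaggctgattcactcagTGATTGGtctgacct
H2-DMb2: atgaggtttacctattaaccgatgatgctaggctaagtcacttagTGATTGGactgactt
H2-Oa: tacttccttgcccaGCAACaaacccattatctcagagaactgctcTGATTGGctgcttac
H2-Ob: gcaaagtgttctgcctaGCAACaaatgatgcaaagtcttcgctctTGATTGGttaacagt
On GRCm38.p6 the stretches are chr17:34287859-34287918 on the minus strand for H2-Aa and, on the plus strand, chr17:34305761-34305820 for H2-Eb1, chr17:34325528-34325587 for H2-Eb2, chr17:34153083-34153142 for H2-DMb1, chr17:34145112-34145171 for H2-DMb2, chr17:34092289-34092348 for H2-Oa and chr17:34238801-34238860 for H2-Ob. The gap between the cores was 26 bases in H2-Aa, H2-DMb1 and H2-Oa, 25 bases in H2-Eb1 and H2-Eb2, and 23 bases in H2-Ob. H2-DMb2 held the Y core, and these X core letters were not in its window. The Y core alone was in 7.82% of all promoters and in 24 members, 17 of class I and 7 of class II.

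Class I promoters carry an NF-kappaB site, part of enhancer A, beside an interferon response element. The letters searched for both were taken from the H2-K1 promoter itself, so its matches were fixed in advance. The shares of all promoters are therefore no test of enrichment. GGGGATTCCCC, searched on both strands, was in 0.0304% of all promoters, and among the members in H2-K1, H2-D1 and H2-Q6. AGTTTCACTTC, searched on both strands, was in 0.0517% of all promoters, and among the members in H2-K1, H2-D1, H2-Q4, H2-Q6, H2-Q7 and H2-Q10. The stretches of these 6 genes are shown, with both motifs in capitals, because they are nearly alike in genes whose fold changes differed in size.
H2-K1: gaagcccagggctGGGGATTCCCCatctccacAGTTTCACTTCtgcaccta
H2-D1: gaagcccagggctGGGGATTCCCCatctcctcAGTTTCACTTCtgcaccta
H2-Q4: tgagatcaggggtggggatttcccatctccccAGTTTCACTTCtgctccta
H2-Q6: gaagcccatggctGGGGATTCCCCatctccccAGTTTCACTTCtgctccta
H2-Q7: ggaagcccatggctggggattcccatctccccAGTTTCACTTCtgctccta
H2-Q10: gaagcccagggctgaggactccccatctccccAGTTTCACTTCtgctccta
They are chr17:34000421-34000471 on the minus strand for H2-K1 and, on the plus strand, chr17:35262910-35262960 for H2-D1, chr17:35379430-35379480 for H2-Q4, chr17:35424664-35424714 for H2-Q6, chr17:35439008-35439058 for H2-Q7 and chr17:35469900-35469950 for H2-Q10 (GRCm38.p6). A match or its absence describes these letters in this window and nothing about the factor.

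The classical class I chains and their light chain were among the most abundant transcripts of the set in every library and were nearly as high with the vehicle as with estrogen. Per kilobase of gene length (RPKM, TMM-scaled), B2m, the light chain, stood at 1467.6 ± 261 with estrogen and 1227 ± 99.4 with vehicle (SD, n = 3 each, as for every mean below). H2-D1 stood at 633 ± 89.2 RPKM with estrogen and 585 ± 61.7 with vehicle, and H2-K1 at 501 ± 93.8 with estrogen and 438 ± 55.6 with vehicle. H2-D1 and H2-K1 encode the classical heavy chains that present peptide to CD8+ T cells.

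By library, H2-K1 (chr17:33996017-34000333, mm10) had 1072, 1290.3 and 1561 CPM in estrogen replicates 1, 2 and 3 and 1238, 975 and 1213 CPM in vehicle replicates 1, 2 and 3. H2-D1 (chr17:35262730-35267499) had 1402, 1632 and 1862 CPM in the estrogen libraries and 1664, 1346 and 1519 CPM in the vehicle libraries. B2m (chr2:122147686-122153083) had 1077, 1198 and 1512 CPM in the estrogen libraries and 1114, 957 and 1094 CPM in the vehicle libraries. In all 3 genes estrogen replicate 3 was the highest library, and estrogen replicate 1 lay among the vehicle libraries. The log2 fold change was 0.20 ± 0.20 (SE) for H2-K1, with a 95% interval of -0.27 to 0.66, and 0.11 ± 0.18 for H2-D1, with an interval of -0.31 to 0.53. For B2m it was 0.26 ± 0.18, with an interval of -0.17 to 0.68. The edgeR adjusted p-values (Benjamini-Hochberg) were 0.584, 0.734 and 0.432 for H2-K1, H2-D1 and B2m. The direction of H2-D1 turns to -0.07 when counts are scaled by library totals alone, a scaling under which the median of all genes was -0.17.

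The class I genes with the smallest p-values were heavy chains of the Q region. H2-Q6 and H2-Q7 (chr17:35424850-35430055 and chr17:35439155-35443773) encode Qa-2 molecules, non-classical class I chains of mice. H2-Q6 had 67.4, 53.4 and 79.2 CPM in estrogen replicates 1, 2 and 3, against 35.5, 28.7 and 41.6 CPM in vehicle replicates 1, 2 and 3. H2-Q7 had 57.2, 45.05 and 55.2 CPM in the estrogen libraries, against 39.1, 26.9 and 36.6 CPM in the vehicle libraries. Every estrogen library lay above every vehicle library in both genes. H2-Q10 (chr17:35470089-35474563), a secreted class I chain best known from the liver, had 161, 222 and 177 CPM in the estrogen libraries, against 147, 111 and 97.0 CPM in the vehicle libraries, again without overlap. Of the 28 tested genes, these 3 were the ones with all estrogen libraries above all vehicle libraries, beside 12.8% of all tested genes.

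The log2 fold change of H2-Q6 was 0.92 ± 0.19, a 1.89-fold difference, with a 95% interval of 0.46 to 1.37. Its unadjusted p was 0.00199 and its adjusted p 0.207 by edgeR (Benjamini-Hochberg), and DESeq2 gave an adjusted p of 0.00609. H2-Q7 had a log2 fold change of 0.62 ± 0.17, with adjusted p-values of 0.207 by edgeR and 0.0479 by DESeq2. H2-Q10 had a log2 fold change of 0.66 ± 0.20, with adjusted p-values of 0.207 by edgeR and 0.0540 by DESeq2. Leaving out any 1 library kept all 3 genes positive at an unadjusted p under 0.05. When the B-cell-rich estrogen replicates 1 and 3 were left out, the log2 fold change was 0.60 for H2-Q6, 0.41 for H2-Q7 and 0.92 for H2-Q10. The unadjusted p of H2-Q7 was then 0.141 (edgeR), so its call ended, and those of H2-Q6 and H2-Q10 were 0.0405 and 0.00998.

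H2-Q6 and H2-Q7 are near copies. Of the stretches of 100 bases in the longest H2-Q7 transcript, 11.7% were also found in H2-Q6, and 8.36% of those in H2-Q6 were found in H2-Q7 (GENCODE M21). How reads that map to several places were counted was not given in the sources, so the split of reads between them is uncertain. H2-Q10 shared 2.06% with other genes. H2-Q4, the other tested Q-region gene, averaged 83.7 ± 15.7 CPM with estrogen and 66.8 ± 15.3 CPM with vehicle, a log2 fold change of 0.32 ± 0.21 with overlapping groups, and 19.1% of its exon bases overlapped Gm11131 on the opposite strand.

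All 5 tested chains of the T and M regions overlapped between the groups. H2-T23, which encodes Qa-1, a ligand of inhibitory receptors on natural killer cells, averaged 76.9 ± 3.81 CPM with estrogen and 81.3 ± 6.21 CPM with vehicle. H2-T22, a non-classical chain recognised by some gamma-delta T cells, averaged 113.6 ± 4.19 CPM with estrogen and 113.0 ± 10.5 CPM with vehicle. The 95% interval of the log2 fold change was -0.28 to 0.29 for H2-T22 and -0.35 to 0.19 for H2-T23. H2-T22 shared 14.2% of its stretches of 100 bases with other genes and 29.4% of its exon bases with A930015D03Rik on the opposite strand, so its count is uncertain. H2-M3, which presents formylated bacterial peptides, averaged 10.5 ± 1.78 CPM with estrogen and 13.4 ± 2.62 CPM with vehicle, a log2 fold change of -0.34 ± 0.21. H2-T24 and H2-M9 varied more within groups than between them, with 4.18 to 6.84 CPM for H2-T24 in the estrogen libraries against 3.56 to 11.6 CPM in the vehicle libraries. For H2-M9 the ranges were 1.96 to 6.69 CPM in the estrogen libraries and 0.661 to 4.17 CPM in the vehicle libraries.

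**Figure D2:**
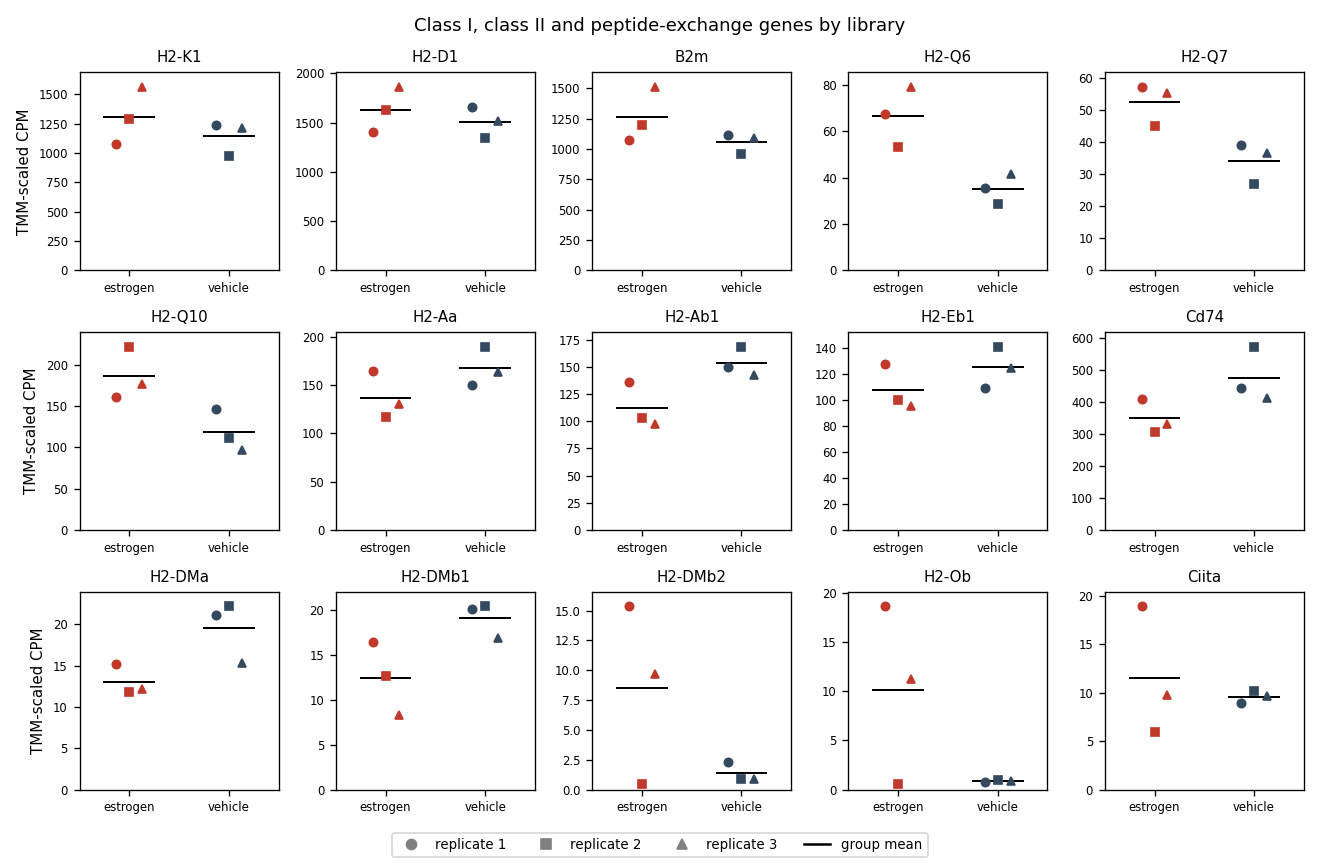
TMM-scaled CPM (vertical axes, each from 0) of 15 genes in each of the 3 estrogen and 3 vehicle libraries (points, shaped by replicate number; lines are group means). H2-Q6, H2-Q7 and H2-Q10 separate the groups upward, as did 12.8% of all tested genes. H2-Ab1, Cd74, H2-DMa and H2-DMb1 separate them downward, as did 14.7% of all tested genes. H2-DMb2 and H2-Ob are high in estrogen replicates 1 and 3 only among the 6 libraries.

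None of the tested members that cut, transport or load class I peptides, or of their regulator Nlrc5, was called at an unadjusted p under 0.05 (edgeR). Tap1 and Tap2 encode the chains of the peptide transporter. Tap1 had 62.6, 45.6 and 56.9 CPM in estrogen replicates 1, 2 and 3 and 52.7, 36.4 and 42.8 CPM in vehicle replicates 1, 2 and 3. Tap2 had 51.0, 58.9 and 64.6 CPM in the estrogen libraries and 52.7, 44.8 and 52.4 CPM in the vehicle libraries. Their groups overlapped, with log2 fold changes of 0.32 ± 0.18 and 0.22 ± 0.13. Tapbp, the tapasin that holds class I at the transporter, averaged 224 ± 19.8 CPM with estrogen and 223 ± 18.9 CPM with vehicle. Its 95% interval was -0.31 to 0.32, and 24.9% of its exon bases overlapped Gm19412 on the opposite strand.

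Psmb8, Psmb9 and Psmb10 encode the catalytic subunits that turn a proteasome into the immunoproteasome, and they did not share a direction. Psmb9 had 32.4, 27.3 and 36.7 CPM in the estrogen libraries and 29.8, 22.6 and 26.4 CPM in the vehicle libraries, a log2 fold change of 0.29 ± 0.16. Psmb8 averaged 45.7 ± 4.32 CPM with estrogen and 43.4 ± 4.75 CPM with vehicle, a log2 fold change of 0.08 ± 0.13. Psmb10 had 39.2, 40.3 and 36.4 CPM in the estrogen libraries, against 45.02, 41.9 and 41.3 CPM in the vehicle libraries. It was the only class I gene tested with every estrogen library below every vehicle library, beside 14.7% of all genes, but its log2 fold change was -0.15 ± 0.10 with an unadjusted p of 0.190 (edgeR). Nlrc5, the class I transactivator, had 65.8, 37.3 and 49.7 CPM in the estrogen libraries and 45.2, 33.6 and 44.5 CPM in the vehicle libraries, which overlapped. Its log2 fold change was 0.31 ± 0.22, and -0.13 without estrogen replicates 1 and 3.

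Tap1 and Psmb9 start back to back and their exons overlap by 212 bases on opposite strands, so without a stated strand setting some of their reads cannot be told apart. Their shared start region, printed because the 2 genes start back to back, is chr17:34187306-34187580 on the plus strand (GRCm38.p6). Their log2 fold changes of 0.32 and 0.29 were close, but so were those of Nlrc5 and H2-Q4, at 0.31 and 0.32. A part of the shared region in these values was not tested. The capitals mark CCAATCA, the Y core read on the other strand.
Tap1 and Psmb9: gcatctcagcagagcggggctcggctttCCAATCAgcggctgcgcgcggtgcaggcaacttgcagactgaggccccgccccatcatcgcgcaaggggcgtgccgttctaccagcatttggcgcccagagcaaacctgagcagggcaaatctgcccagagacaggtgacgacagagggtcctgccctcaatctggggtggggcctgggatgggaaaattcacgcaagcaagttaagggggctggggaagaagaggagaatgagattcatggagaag

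The 3 tested class II surface chains and their chaperone had negative log2 fold changes, and H2-Ab1 and Cd74 were lower at an unadjusted p under 0.05. H2-Aa and H2-Ab1 encode the alpha and beta chains of I-A, H2-Eb1 the beta chain of I-E, and Cd74 the invariant chain that fills the groove until the endosome. H2-Ab1 (chr17:34263209-34269418) had 136, 103 and 97.0 CPM in estrogen replicates 1, 2 and 3, against 150.0, 168 and 142 CPM in vehicle replicates 1, 2 and 3. Cd74 (chr18:60803848-60812646) had 410.4, 305 and 330 CPM in the estrogen libraries, against 444, 572 and 412 CPM in the vehicle libraries. In both genes all estrogen libraries lay below all vehicle libraries, although for Cd74 estrogen replicate 1 lay just under vehicle replicate 3. Counting H2-DMa, H2-DMb1 and Psmb10, 5 of the 28 tested genes lay apart in this way, beside 14.7% of all tested genes. H2-Aa had 164, 117 and 130.0 CPM in the estrogen libraries and 151, 189.8 and 163 CPM in the vehicle libraries. H2-Eb1 had 128, 100.4 and 95.2 CPM in the estrogen libraries and 109, 141 and 125 CPM in the vehicle libraries. For H2-Aa and H2-Eb1 estrogen replicate 1 lay among the vehicle libraries.

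The log2 fold change was -0.46 ± 0.16 for H2-Ab1, with a 95% interval of -0.84 to -0.07 and an unadjusted p of 0.0269. It was -0.45 ± 0.19 for Cd74, with an unadjusted p of 0.0472, -0.29 ± 0.17 for H2-Aa and -0.21 ± 0.16 for H2-Eb1. The edgeR adjusted p-values (Benjamini-Hochberg) were 0.212 for H2-Ab1 and 0.240 for Cd74, and those of DESeq2 were 0.120 and 0.153. Both calls ended when estrogen replicate 2, estrogen replicate 3, vehicle replicate 1 or vehicle replicate 2 was left out, with unadjusted p-values of 0.0532 to 0.0893 for H2-Ab1 and 0.0666 to 0.171 for Cd74. The replicate block gave Cd74 an unadjusted p of 0.0796. Without estrogen replicates 1 and 3 the log2 fold change was -0.57 for H2-Ab1 and -0.63 for Cd74. Per kilobase, Cd74 stood at 247 ± 39.1 RPKM with estrogen and 338 ± 60.2 with vehicle. H2-Eb1, H2-Aa and H2-Ab1 lay close together, at 91.2 ± 15.0, 73.1 ± 13.1 and 68.4 ± 12.8 RPKM with estrogen and 106 ± 13.4, 89.6 ± 10.7 and 93.8 ± 8.20 RPKM with vehicle. Cd74 over the summed class II chains, per kilobase, was 1.04, 1.03 and 1.11 in the estrogen libraries and 1.19, 1.25 and 1.04 in the vehicle libraries.

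H2-DMa and H2-DMb1 encode the chains of DM, the exchange factor that takes the invariant chain fragment out of the class II groove. H2-DMa (chr17:34135182-34139101) had 15.2, 11.9 and 12.1 CPM in estrogen replicates 1, 2 and 3, against 21.1, 22.2 and 15.3 CPM in vehicle replicates 1, 2 and 3. H2-DMb1 (chr17:34153072-34160230) had 16.4, 12.6 and 8.29 CPM in the estrogen libraries, against 20.1, 20.4 and 16.8 CPM in the vehicle libraries. No estrogen library reached a vehicle library in either gene, although estrogen replicate 1 came close to vehicle replicate 3 in both. The log2 fold changes were -0.58 ± 0.19 and -0.61 ± 0.25, with unadjusted p-values of 0.0187 and 0.0420 and edgeR adjusted p-values (Benjamini-Hochberg) of 0.207 and 0.231. The call of H2-DMa ended when estrogen replicate 2, vehicle replicate 1 or vehicle replicate 2 was left out (unadjusted p of 0.0604 to 0.0697). That of H2-DMb1 ended on leaving out any library but estrogen replicate 1 (unadjusted p of 0.0511 to 0.105). With estrogen replicates 1 and 3 dropped, the log2 fold changes were -0.71 and -0.59. The exons of H2-DMa overlapped those of Brd2 on the opposite strand in 10.4% of their bases.

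The other class II exchange genes followed a different pattern, high in estrogen replicates 1 and 3 and low in the other 4 libraries. H2-Ob (chr17:34238903-34245907), the beta chain of DO, had 18.6, 0.589 and 11.3 CPM in estrogen replicates 1, 2 and 3 and 0.762, 0.961 and 0.868 CPM in vehicle replicates 1, 2 and 3. H2-DMb2 (chr17:34143307-34151553), the second beta chain gene of DM, had 15.3, 0.458 and 9.68 CPM in the estrogen libraries and 2.34, 0.911 and 0.911 CPM in the vehicle libraries. Estrogen replicate 2 was the lowest of the 6 libraries for both, so the groups overlapped. H2-Oa, the alpha chain of DO, did not pass the filter and had 105, 2 and 52 counts in the estrogen libraries and 10, 1 and 3 counts in the vehicle libraries. H2-Eb2, a further class II beta chain gene, did not pass either and had 80, 7 and 28 counts in the estrogen libraries and 3, 2 and 0 counts in the vehicle libraries.

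The log2 fold change of H2-Ob was 3.55 ± 1.01, with a 95% interval of 1.17 to 5.93. Its edgeR adjusted p (Benjamini-Hochberg) was 0.207 and its DESeq2 adjusted p 0.00528. For H2-DMb2 it was 2.62 ± 1.02, with a 95% interval of 0.21 to 5.03 and adjusted p-values of 0.225 by edgeR and 0.0548 by DESeq2. Without estrogen replicates 1 and 3 the log2 fold change was -0.54 for H2-Ob and -1.57 for H2-DMb2. Without estrogen replicate 2 the edgeR adjusted p of H2-Ob was 0.0474, at a log2 fold change of 4.10. The unadjusted p of H2-DMb2 was above 0.05 when estrogen replicate 1 or 3 or vehicle replicate 2 or 3 was left out. By limma-voom the unadjusted p was 0.144 for H2-Ob and 0.246 for H2-DMb2, so both calls ended there. Under a filter of a CPM of at least 1 in at least 3 libraries, H2-Ob was not tested. H2-DMb1 and H2-DMb2 share 13.7% and 12.9% of their stretches of 100 bases, so a part of their counts could be split between them.

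The libraries high in DO and H2-DMb2 were the libraries high in B cell markers. Pax5, a transcription factor of the B lineage, had 18.8, 0.589 and 9.96 CPM in the estrogen libraries and 0.152, 0.202 and 0.477 CPM in the vehicle libraries. Of the 10 markers, 5 passed the low-count filter, and 0 were at 0 in all libraries of a group. Pax5, Cd79a and Blk would not have passed it on their vehicle counts alone. In vehicle replicates 1, 2 and 3 these were 3, 4 and 11 for Pax5, 17, 3 and 18 for Cd79a, and 12, 5 and 16 for Blk. DO is known in mice mainly from B cells. The 10 T cell markers summed to 94.0, 8.05 and 18.8 CPM in the estrogen libraries and 5.18, 6.02 and 8.20 CPM in the vehicle libraries. The markers of lymph node stroma, a tissue that lies within this fat pad, were 6 symbols on 8 gene identifiers and summed to 42.2, 12.6 and 54.7 CPM in the estrogen libraries and 32.7, 6.68 and 25.2 CPM in the vehicle libraries. Most of this was Cxcl13, a chemokine that draws B cells, at 29.0, 11.2 and 53.8 CPM in the estrogen libraries and 31.1, 6.22 and 23.2 CPM in the vehicle libraries. The more abundant Ccl21a identifier had 191, 0 and 0 counts in the estrogen libraries and 9, 0 and 34 counts in the vehicle libraries. Of the 8 identifiers, 1 was at 0 in all estrogen libraries and 3 were at 0 in all vehicle libraries. The part of these cells in the result was not tested.

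**Figure D3:**
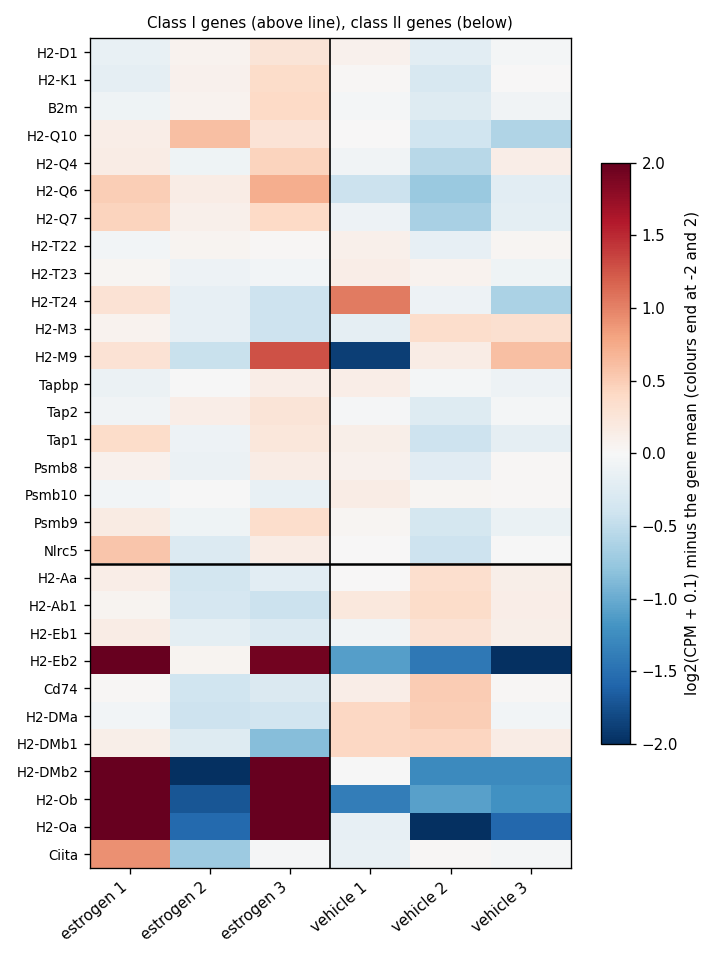
Log2(CPM + 0.1) minus the gene's mean over the 6 libraries (colour, ending at -2 and 2), for the 30 genes with at least 100 summed counts (rows, class I above the line and class II below) in the estrogen and vehicle libraries (columns). H2-Eb2, H2-DMb2, H2-Ob and H2-Oa are dark red in estrogen replicates 1 and 3. The other class II genes are mostly blue in estrogen replicates 2 and 3, except that Ciita is blue in estrogen replicate 2 and near its mean in estrogen replicate 3.

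The balance of DO to DM set the same libraries apart. DO over DM, each summed per kilobase, was 0.343, 0.0179 and 0.340 in estrogen replicates 1, 2 and 3 and 0.0226, 0.0124 and 0.0177 in vehicle replicates 1, 2 and 3. H2-DMb2 made up 44.8, 3.05 and 50.4% of the DM beta chain RNA per kilobase in the estrogen libraries and 9.16, 3.73 and 4.49% in the vehicle libraries. Estrogen replicate 2 was within the range of the vehicle libraries for DO over DM and just below it for H2-DMb2. No test was made of these ratios or of the sums below, which combine members.

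Ciita (chr16:10480059-10528418), the class II transactivator, had 18.9, 5.96 and 9.75 CPM in estrogen replicates 1, 2 and 3 and 8.94, 10.2 and 9.67 CPM in vehicle replicates 1, 2 and 3. Estrogen replicate 1 was the highest library and estrogen replicate 2 the lowest, while the vehicle libraries were close together. The log2 fold change was 0.27 ± 0.39, with a 95% interval of -0.64 to 1.18. It rests on estrogen replicate 1, without which it was -0.31, and it was -0.68 with an unadjusted p of 0.0403 (edgeR) without estrogen replicates 1 and 3.

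Summed by class, the heavy chains of class I held 3058, 3520.03 and 4045 CPM in estrogen replicates 1, 2 and 3 and 3424, 2747 and 3203 CPM in vehicle replicates 1, 2 and 3. The class II surface chains held 433, 321 and 324 CPM in the estrogen libraries and 410.2, 499 and 430.4 CPM in the vehicle libraries. Class II reads were thus 14.1, 9.11 and 8.01% of class I reads in the estrogen libraries and 12.0, 18.2 and 13.4% in the vehicle libraries. Estrogen replicates 2 and 3 lay below all vehicle libraries, and estrogen replicate 1 lay between vehicle replicates 3 and 2. The means were 10.4 ± 3.27% with estrogen and 14.5 ± 3.24% with vehicle, a difference of -0.50 on the log2 scale.

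The 12 macrophage markers summed to 1698, 2089 and 718 CPM in the estrogen libraries, against 3034, 3960 and 2764 CPM in the vehicle libraries, without overlap. All 12 had a negative log2 fold change, with a median of -1.09. At an unadjusted p under 0.05, 8 were lower, beside 10.9% of all tested genes. DESeq2 called 3 lower, beside 3.34% of genes. Among the 12, Csf1r, the receptor for the macrophage growth factor, had a log2 fold change of -0.96 ± 0.36. Adgre1, which encodes F4/80, had one of -1.38 ± 0.48. The sums of the 10 dendritic cell markers, mostly Clec10a, overlapped between the groups. They were 145, 170 and 101 CPM in the estrogen libraries and 158, 243 and 215 CPM in the vehicle libraries. Of the 9 tested, 4 were positive and 5 negative. At an unadjusted p under 0.05 (edgeR), 1 was higher, Siglech at a log2 fold change of 1.59, beside 9.49% of all tested genes. Lower were 2, Itgax at -1.69 and Cd209a at -0.67, beside 10.9%. DESeq2 called Siglech and Itgax (adjusted p of 0.0407 and 0.00637), beside 2.75% of genes higher and 3.34% lower. H2-Aa over Csf1r, in CPM, was 0.917, 0.538 and 1.54 in the estrogen libraries and 0.624, 0.474 and 0.562 in the vehicle libraries. The 6 adipocyte progenitor markers, with a median log2 fold change of -1.28, summed to 627, 589 and 261 CPM in the estrogen libraries, against 848, 1983 and 899 CPM in the vehicle libraries. The 6 neutrophil markers summed to 25.8, 28.3 and 32.9 CPM in the estrogen libraries and 161, 35.3 and 32.2 CPM in the vehicle libraries, with 5 negative of 5 tested and overlapping groups. None of the markers of these 4 cell types was at 0 in all libraries of a group. The part of these cells in the class II values was not tested.

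**Figure D4:**
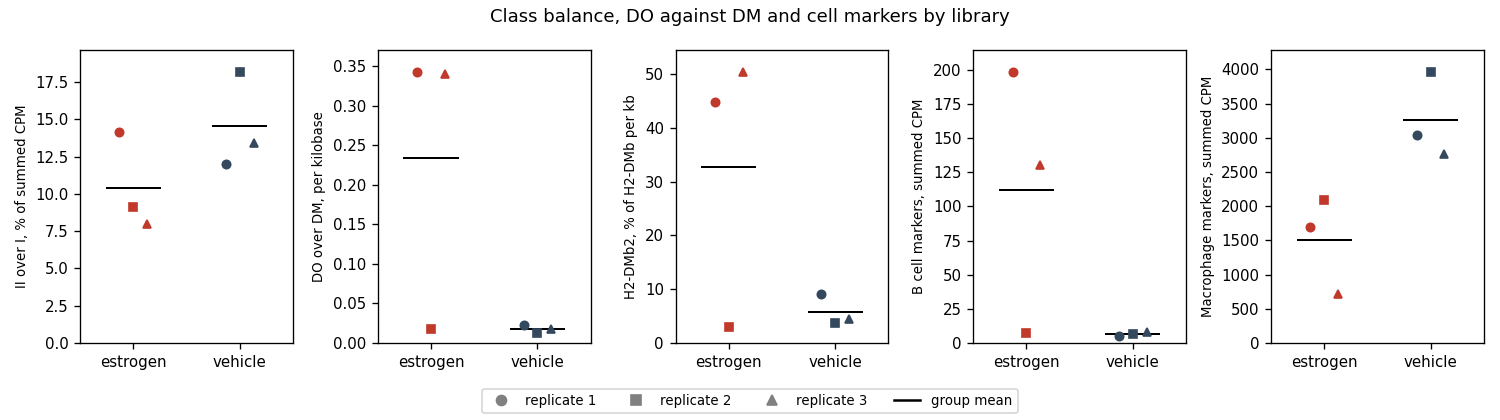
Class II surface chain reads as a percentage of class I heavy chain reads, DO over DM per kilobase, H2-DMb2 as a percentage of the DM beta chains, and summed CPM of the B cell and macrophage markers (vertical axes, each from 0) in each estrogen and vehicle library (points, shaped by replicate number; lines are group means). DO over DM, the H2-DMb2 share and the B cell markers are high in estrogen replicates 1 and 3, whereas the macrophage markers lie between 718 and 2089 CPM in the estrogen libraries, below all vehicle libraries.

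The other genes of the pathway were counted by list. For comparison, 9.49% of all tested genes were higher and 10.9% lower at an unadjusted p under 0.05 (edgeR). DESeq2 called 2.75% of genes higher and 3.34% lower. List counts near these shares set a list apart from no other genes. Of the 5 tested partners that load and trim class I peptides in the endoplasmic reticulum, 0 were higher and 2 lower at an unadjusted p under 0.05, and both were called lower by DESeq2. They were Pdia3 and Calr, the disulfide isomerase and the calreticulin of the loading complex, which also fold other proteins. Pdia3 averaged 241 ± 16.4 CPM with estrogen and 390.2 ± 56.2 CPM with vehicle, and Calr 404 ± 37.2 CPM with estrogen and 576 ± 52.2 CPM with vehicle. Their log2 fold changes were -0.69 ± 0.15 and -0.51 ± 0.15, with DESeq2 adjusted p-values of 0.00682 and 0.0254. Canx and Tapbpl, at -0.24 ± 0.14 and 0.29 ± 0.15, did not pass.

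Of the 7 regulators of the class II promoter, 0 were higher and 2 lower at an unadjusted p under 0.05. Both have many other targets. Creb1 averaged 25.9 ± 2.35 CPM with estrogen and 38.0 ± 2.63 CPM with vehicle, and Nfya, a subunit of NF-Y, 23.5 ± 4.51 CPM with estrogen and 36.6 ± 2.53 CPM with vehicle. Their log2 fold changes were -0.55 ± 0.12 and -0.64 ± 0.16, and the DESeq2 adjusted p-values were 0.0224 and 0.0459. Rfx5, the subunit by which RFX binds the X box, had a log2 fold change of 0.35 ± 0.18, and Nfyc one of 0.25 ± 0.12.

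All 6 genes of endosomal processing had a negative log2 fold change, with a median of -0.63, but 1 of them was lower at an unadjusted p under 0.05. This was Ifi30, a reductase that opens disulfides of antigens in endosomes. It averaged 43.1 ± 14.5 CPM with estrogen and 77.6 ± 8.77 with vehicle, a log2 fold change of -0.85 ± 0.26. Lgmn and Ctss, proteases that cut the invariant chain, varied widely within groups, with log2 fold changes of -0.79 ± 0.36 and -0.97 ± 0.54. Ctss overlapped between the groups. Lgmn had 194.7, 296.1 and 100.2 CPM in the estrogen libraries, all below the 338.7, 384.8 and 296.9 CPM of the vehicle libraries. Of the 6 genes, 2 lay apart in this way, beside 14.7% of all tested genes. Macrophages also express these genes, and the macrophage marker values given above apply here too. Their part in the result was not tested.

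Of 5 constitutive proteasome and activator genes, 1 was higher at an unadjusted p under 0.05 and all 5 were positive. It was Psmb7, a catalytic subunit that Psmb10 replaces, averaging 105 ± 4.34 CPM with estrogen and 80.2 ± 8.58 with vehicle, a log2 fold change of 0.39 ± 0.12 and a DESeq2 adjusted p of 0.0706. The 6 class I-like genes outside the H2 region gave 0 calls in either direction. Cd1d1, which presents lipids, averaged 309 ± 56.9 CPM with estrogen and 232 ± 58.3 CPM with vehicle. Of 9 tested genes of the interferon gamma pathway, 0 were higher and 1 was lower at an unadjusted p under 0.05. This was Ifngr2, a receptor chain, at a log2 fold change of -0.78 ± 0.23. Irf1, a transcription factor that acts on class I genes, was at -0.04 ± 0.15, and Ifng itself had 0, 0 and 2 counts in the estrogen libraries and 0, 0 and 1 counts in the vehicle libraries. Among 5 tested co-stimulation and co-inhibition ligands, 1 was higher, Icosl at 0.86 ± 0.36, and 0 were lower. Cd80 was at -1.53 ± 0.69 with an unadjusted p of 0.0623 (edgeR).

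In all, 16 of the 44 did not pass the filter, and 7 of these, H2-M1 and the 6 H2-M10 genes, had 0 counts in all 6 libraries. A count of 0 allows up to 3 counts, or 0.130 to 0.209 CPM, for counting error only. H2-M1 and H2-M10 genes are known in mice from the vomeronasal organ. H2-M11, H2-Ke6, H2-Q1, H2-M5, H2-T3 and H2-Q2 had 50, 33, 29, 12, 3 and 1 counts summed over the 6 libraries. H2-M2 had 62, 0 and 1 counts in the estrogen libraries and 4, 4 and 3 counts in the vehicle libraries, so that nearly all of its counts came from estrogen replicate 1. H2-Ke6 encodes a steroid dehydrogenase rather than an MHC chain, and 86.4% of its exon bases are shared with Gm20427 on the same strand. A further 11 genes with a symbol beginning H2- are not listed as protein-coding and were not members. Among them H2-Q5, H2-T10 and H2-K2 had 1385, 802 and 768 counts summed over the 6 libraries. H2-Ea-ps, the I-E alpha chain gene, is listed as an unprocessed pseudogene and had 0. The RNA of H2-Eb1, counted above with the surface chains, thus had no I-E alpha chain RNA beside it in these counts.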

How the data were processed

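The deposited values are raw counts of reads for each gene, without normalization, in 1 table of 6 libraries that also holds gene lengths, per the file headers. HISAT2, featureCounts and the mm10 build are named in the submitters' processing notes. For these tools the version, the annotation release, the strand setting and the handling of multi-mapping reads were not given in the sources used here. Groups and replicate numbers come from the sample titles.

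Counts were filtered with filterByExpr of edgeR 4.0.16 at its defaults, scaled with TMM factors and tested by the quasi-likelihood F test in R 4.3.3, without a replicate block. P-values were adjusted by Benjamini-Hochberg over all 15591 tested genes, with a threshold of 0.05. CPM and RPKM values are TMM-scaled, and standard errors come from the F statistic. The tests were first tested on simulated data. DESeq2 1.42.0 on the same genes, limma 3.58.1 (voom), other scalings and filters, a replicate block and the omission of each library, or of estrogen replicates 1 and 3 together, were alternatives. Scaling by library totals was added after the data were seen. Transcript and exon overlaps come from GENCODE M21 (mm10), in which 33 of the 44 members have the same start and end as in the deposited table.

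Every tested member was counted. Values were given in more depth for members with the smallest unadjusted p or the highest level per length in each role, and of each other list for up to 4 genes with the smallest unadjusted p. Further genes named beside these, such as Csf1r, Cxcl13 and Irf1, were chosen for their known role after their values were seen. The members and the gene lists were chosen with earlier results of these data known. No 2 libraries of a group agreed within sampling noise.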

Additional observations from a re-analysis of the deposited data

How the results depend on the processing

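Of the 28 tested members, 28 kept their direction and their side of the edgeR threshold of 0.05 (Benjamini-Hochberg adjusted) under RLE scaling, limma-voom and the replicate block. No member passed this threshold in the main fit, so keeping its side shows little. Some calls at an unadjusted p under 0.05 did change. With limma-voom those of H2-Ob and H2-DMb2 ended. With the replicate block that of Cd74 ended, and Tap1 and H2-Q4 were called (unadjusted p of 0.0337 and 0.0430, edgeR). Scaling by library totals, chosen after seeing the data, moved the class I median to 0.039 and turned H2-D1 to -0.067, Psmb8 to -0.10, Tapbp to -0.17 and H2-T22 to -0.16, as the median of all genes was -0.17 there. Without the low-count filter Tapbp was -0.012 and H2-T22 -0.011. DESeq2 called 854 genes in all, and limma-voom gave 3 higher members. Without estrogen replicates 1 and 3 there were 1 gene past the threshold, 1620 at an unadjusted p under 0.05 and 2 higher members, with class medians of 0.053 (I) and -0.59 (II), and Nlrc5 was -0.13, Psmb8 -0.077, H2-M9 -0.41, H2-DMb2 -1.57, H2-Ob -0.54 and Ciita -0.68. Leaving out 1 library at a time gave 0 to 13 genes past the threshold, 13 of them without estrogen replicate 2, and 1459 (without vehicle replicate 2) to 3239 at an unadjusted p under 0.05. It gave 4 to 10 higher and 0 to 5 lower members, class I medians of 0.034 to 0.26 and class II medians of -0.46 to -0.12. Log2 differences of the sums ran from 0.08 to 0.28 for class I, -0.47 to -0.24 for class II and -0.74 to -0.33 for class II over class I. The sign turned in some of these for Psmb8 (-0.011 to 0.15), Tapbp (-0.058 to 0.076), H2-T22 (-0.065 to 0.062), H2-T24 (-0.65 to 0.28) and Ciita (-0.31 to 0.58). The cause was not tested. The deviations of same-numbered libraries correlated at -0.123, 0.163 and 0.289 for numbers 1, 2 and 3. Not every library correlated best with its own number. With 3 libraries per group these values cannot show whether the numbers, which come from the sample titles, pair the samples. The column headers do not match them throughout, so the block joins Veh_3 with E2_2 as replicate 2. With the replicate block there were 0 genes past the threshold and 3305 at an unadjusted p under 0.05, 7 higher and 3 lower members, and class medians of 0.22 (I) and -0.30 (II). With 3 libraries per group, differences of the size seen in most members lay within the 95% intervals around 0, and genes with under 3 counts per library could not be compared.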
